A study of Mus musculus with 4 samples.

Results

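The genes described here encode the subunits, activators and assembly factors of the proteasome, measured in alveolar macrophages, which take up particles and microbes in the airspace. They are every deposited gene symbol that begins with Psma, Psmb, Psmc, Psmd, Psme, Psmf or Psmg followed by a digit, which gave 47 symbols with 163 tags out of 11754 symbols with 30627 tags. Of these 47 symbols, 42 had a count in at least 1 library, and 25 had enough counts to be tested. One symbol that fits the spelling, Psmc3ip, names a protein that binds Psmc3 and is not a proteasome subunit. It is listed at 0 in every library.

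The proteasome is the main protease of the cytosol and nucleus for proteins tagged with ubiquitin. Its barrel-shaped 20S core is built of rings of alpha subunits (Psma) around rings of beta subunits (Psmb), and a few of the beta subunits carry the cutting sites. The 19S regulator at the ends of the barrel binds ubiquitin chains and removes them, unfolds the substrate with its ATPases (Psmc) and feeds it into the core, together with the non-ATPase subunits (Psmd). In immune cells and after interferon-gamma, the catalytic subunits Psmb5, Psmb6 and Psmb7 can be replaced by Psmb8, Psmb9 and Psmb10. That form, the immunoproteasome, and the PA28 activator made of Psme1 and Psme2 are known for supplying peptides to MHC class I.

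RNA was profiled by serial analysis of gene expression (SAGE), which counts a short tag next to a CATG site of each transcript. The 2 Pre AM libraries came from alveolar macrophages of untreated wild-type BALB/c mice without lung metastasis. The 2 Day 21 AM libraries came from wild-type BALB/c mice that carried lung metastases 21 days after an intravenous injection of BNL cells, a mouse hepatocellular carcinoma line. The sources used here do not give the ages of the mice, any pooling or any sham injection. Each p-value therefore reflects no more than the spread of these 4 libraries, and that spread may be technical.

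The libraries held 1630776 to 2198563 counts, with 4754 to 5859 symbols counted in each. Proteasome symbols took 0.259% and 0.258% of the counts of Day 21 AM replicates 1 and 2, and 0.205% and 0.245% of those of Pre AM replicates 1 and 2. The smallest count listed above 0 is 2 in all libraries, so a gene listed at 0 may still have been read once per tag. Among marker genes, 14 of the 19 names listed for alveolar macrophages had a count, with a summed level of 1620 and 3690 CPM on Day 21 and 1059 and 2561 CPM before. CPM is a count scaled to a common library size after TMM, edgeR's correction for library composition. Chi3l3 and Ear2 made up most of these sums, and the other 12 counted markers summed to 269 and 248 CPM on Day 21 against 498 and 540 CPM before. Much of that difference lay in Krt79 alone, with 90.8 and 20.6 CPM on Day 21 against 329 and 210 CPM before. The 12 tested markers had a median log2 change of -0.23, with 5 positive and 0 past the adjusted threshold. Fabp4 is listed at 0, and Marco had 2 counts in 1 Pre AM library and 0 elsewhere. Of 13 markers of monocyte-derived or interstitial macrophages, 9 had a count, with summed levels of 2158 and 3264 CPM on Day 21 against 50.1 and 112 CPM before (Cx3cr1, Folr2, Lyve1 and Mgl2 had none), and 5 of its 6 tested genes were higher on Day 21 at an adjusted p under 0.05 in edgeR's quasi-likelihood test, where 0.671% of all tested symbols were. Of 10 neutrophil markers, 5 had a count, with summed levels of 76.0 and 280 CPM against 9.33 and 159 CPM. Of 14 lung epithelial markers, 4 had a count, with 48.6 and 66.9 CPM against 168 and 348 CPM. Of its 3 tested genes 1, Tppp3, was lower on Day 21 (log2 change -2.90, adjusted p = 0.0475 in edgeR's quasi-likelihood test), where 0.0671% of all tested symbols were, and the surfactant genes Sftpa1, Sftpb, Sftpc and Sftpd had none. Of 12 T or NK cell markers only Cd2 had a count (14.9 and 12.8 CPM against 63.3 and 130 CPM), with Cd3e and Nkg7 at 0. The erythroid list summed to 23.4 and 61.9 CPM against 32.9 and 152 CPM, the fibroblast list to at most 2.85 CPM and the hepatocyte list to at most 1.23 CPM. The B cell, dendritic cell and endothelial lists had no count in any library. The part of these other cells in the proteasome values was not tested. In RNA of a whole cell preparation, fewer cells of a type and less RNA per cell cannot be told apart.

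The tags show what was counted for each gene. The following are the most abundant tags of the 4 genes with the most counts, of the 3 catalytic immunoproteasome subunits and of PA28, with the CATG that the enzyme NlaIII cuts in capitals:
Psma1: CATGgtctgcgtgccttaagagaaa
Psmd8: CATGgagggtagctacaacaaggta
Psmd4: CATGggggctctggcctcccaggcc
Psmb8: CATGaaggaagacggttgggtgaaa
Psmb9: CATGaaccgagatggctctagtggg
Psmb10: CATGgaggtggaatgaagtggcctg
Psme1: CATGgagatccgaaatgcttatgct
Psme2: CATGgtgctggacctgagggccttc

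Positions come from a match of these 25 bases to GENCODE M21 transcripts on GRCm38, not from the mm9 build of the submitters. The Psma1 tag lay at chr7:114267153-114267177 on the minus strand, in the coding sequence of exon 8 of 10, with 93.7% of all Psma1 counts. The Psmd8 tag lay at chr7:29176144-29176168 (minus strand, coding sequence of exon 5 of 7) and held 99.5%. The Psmd4 tag lay at chr3:95032859-95032883 (minus strand, coding sequence of exon 10 of 10) and held 99.2%. The Psmb8 and Psmb9 tags both lay on chromosome 17, where the 2 genes are neighbours in the MHC region. That of Psmb8 was at chr17:34201185-34201209 (plus strand, exon 6 of 6) with 98.7% of its counts, and that of Psmb9 at chr17:34182314-34182338 (minus strand, exon 6 of 6) with 94.4%, both in coding sequence. The Psmb10 tag, at chr8:105935785-105935809 on the minus strand, crossed from the coding sequence into the 3' UTR in exon 8 of 8 and held 80.9%. The main tags of Psme1 and Psme2, both on chromosome 14, also match other genes (Gm7776 and Psme2b), so part of their counts may belong to those.

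Over the 42 counted symbols, the main tag lay in coding sequence in 25, in the 3' UTR in 13 and across a boundary of the coding sequence in 4. In 32 it was at the last NlaIII site of some annotated transcript of the gene, and in 10 it was at a site that is the last of no annotated transcript. In 7 (Psma5, Psmb3, Psmc1, Psmd13, Psmd14, Psme1 and Psme2) it also matched another gene, in most cases a numbered gene model without a name of its own. A tag count does not grow with transcript length, but the yield of a tag differs from gene to gene. Levels of different subunits are therefore numbers of tags, and are compared here between libraries rather than between genes.

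No proteasome gene passed the test of Day 21 AM against Pre AM. Of the 25 tested members, 0 were higher and 0 lower at an adjusted p below 0.05 (edgeR quasi-likelihood test with Benjamini-Hochberg adjustment over 2979 symbols), where 0.739% of all tested symbols passed (0.671% higher and 0.0671% lower). With so small a share over all symbols, a count of 0 among 25 does not set the members apart, and it does not show that they did not differ. The count of members with an unadjusted p below 0.05 was also 0, where 5.64% of all tested symbols passed. DESeq2 and limma-voom called 0 members as well. Of the 2979 symbols, DESeq2 called 21 higher and 4 lower, and limma-voom 9 higher and 3 lower. The smallest unadjusted p among the members was 0.160 (Psmd8), and the smallest adjusted p was 0.999. Of the 25, 15 had a positive and 10 a negative log2 change (Day 21 AM minus Pre AM), from -1.02 for Psma3 to 0.83 for Psmd8. Their median was 0.14, beside -0.07 over all tested symbols, of which 45.6% were positive. Standard errors of the members ran from 0.54 to 0.95 on the log2 scale. With total counts in place of TMM, the median of all tested symbols was -0.29 and that of the members -0.083, and Psmd4 and Psmd7 took a negative sign.

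**Figure D1:**
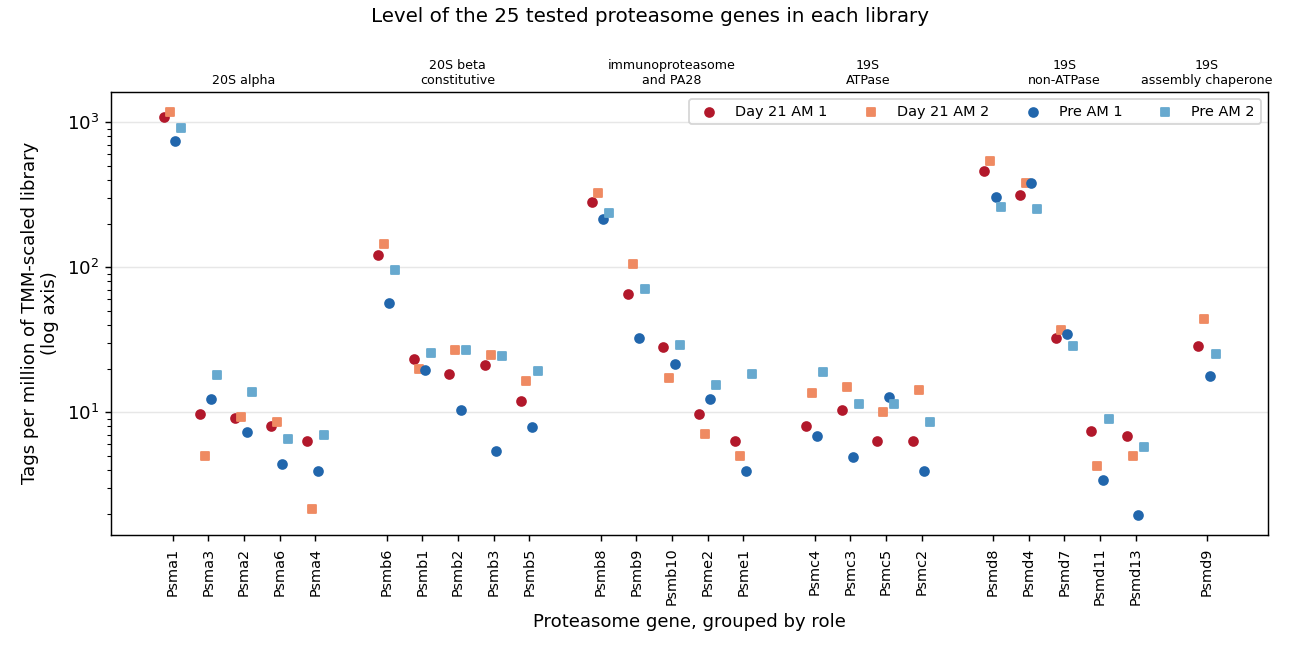
Level of each of the 25 tested proteasome genes in each library, in CPM on a log axis, grouped by role. Psma1, Psmd8, Psmd4, Psmb8 and Psmb6 stand above the rest in all 4 libraries, and the points of Pre AM replicate 1 are the lowest for 17 of the 25 genes.

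The counts were concentrated in 5 genes. Psma1, Psmd8, Psmd4, Psmb8 and Psmb6 together held 86.0% and 85.9% of the proteasome counts in Day 21 AM replicates 1 and 2, and 86.4% and 79.9% in Pre AM replicates 1 and 2. Their summed level was 2270 and 2576 CPM on Day 21 and 1705 and 1760 CPM before, so the groups did not overlap. The other 37 counted members summed to 369 and 424 CPM on Day 21 and 269 and 443 CPM before, with the 2 Day 21 AM libraries lying between the Pre AM ones. All members together summed to 2820 ± 256 CPM on Day 21 and 2088 ± 162 CPM before (mean ± SD, n = 2 per group). A sum over chosen members was not tested.

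Among the alpha subunits, which form the outer rings and the gate of the core, Psma1 had by far the most tags. It had 1906 and 1658 counts in Day 21 AM replicates 1 and 2 and 1521 and 2246 counts in Pre AM replicates 1 and 2, or 1089 and 1181 CPM against 747 and 918 CPM. Both Day 21 AM libraries were above both Pre AM ones after scaling, and the log2 change was 0.45 ± 0.54 (SE). Psma6 also had both Day 21 AM libraries on top, with 14 and 12 counts against 9 and 16 (8.00 and 8.54 CPM against 4.42 and 6.54 CPM). Psma3 had the lowest log2 change of all members, with 17 and 7 counts on Day 21 and 25 and 44 counts before. Its log2 change was -1.02 ± 0.77 (unadjusted p = 0.193), and both Day 21 AM libraries were below both Pre AM ones. Psma2 (16 and 13 against 15 and 34 counts) and Psma4 (11 and 3 against 8 and 17 counts) overlapped between the groups. Psma5, with 15 and 3 against 8 and 11 counts, was below the filter, and the 1 listed tag of Psma7 is at 0 in all libraries. The median over the 5 tested alpha subunits was -0.21, with 2 of them positive.

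The constitutive beta subunits complete the core, and Psmb5, Psmb6 and Psmb7 carry its chymotrypsin-like, caspase-like and trypsin-like activities. Psmb6 had the most tags, with 212 and 202 counts in the Day 21 AM libraries and 116 and 235 in the Pre AM ones. At 121 and 144 CPM against 56.9 and 96.0 CPM, its groups did not overlap. Its log2 change was 0.79 ± 0.62 (unadjusted p = 0.217), and the Pre AM libraries alone differed 1.69-fold. Psmb5 had 21 and 23 counts against 16 and 47, so the Pre AM libraries enclosed the Day 21 AM ones, and its log2 change was 0.06. Psmb7 had 2 and 2 counts against 2 and 11 and was not tested. Of the structural beta subunits, Psmb3 had 37 and 35 against 11 and 60 counts and Psmb2 had 32 and 38 against 21 and 66 counts. For Psmb3 the Pre AM libraries differed 4.54-fold, more than the fitted change between the groups (log2 change 0.61 ± 0.76). Psmb1 was level, with 41 and 28 against 40 and 63 counts, or 23.4 and 19.9 CPM against 19.6 and 25.7 CPM. Psmb4, with 11 and 5 against 4 and 5 counts, was below the filter. The median over the 5 tested constitutive beta subunits was 0.27, with 4 of them positive.

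All 5 immunoproteasome and PA28 genes were counted in every library, in untreated mice as well as on Day 21. Psmb8, the inducible counterpart of Psmb5, had 496 and 459 counts in the Day 21 AM libraries and 436 and 580 in the Pre AM ones. At 283 and 327 CPM against 214 and 237 CPM its groups did not overlap, and its log2 change was 0.44 ± 0.58 (95% interval -0.77 to 1.64). Psmb9, the counterpart of Psmb6, had 114 and 147 counts against 66 and 174. Its levels of 65.1 and 105 CPM on Day 21 overlapped with 32.4 and 71.1 CPM before, and its log2 change was 0.71 ± 0.65 (95% interval -0.63 to 2.05). Psmb10, the counterpart of Psmb7, had 49 and 24 counts against 44 and 71, with a log2 change of -0.16 ± 0.70.

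The PA28 genes had few tags and negative changes that did not pass. Psme1 had 11 and 7 counts on Day 21 and 8 and 45 before, so 1 Pre AM library, replicate 2, held most of its counts. Its log2 change was -0.98 ± 0.84 with all libraries and 0.54 without Pre AM replicate 2. Psme2 had 17 and 10 counts on Day 21 against 25 and 38 before, and both Day 21 AM libraries were below both Pre AM ones (9.71 and 7.12 CPM against 12.3 and 15.5 CPM). Its log2 change was -0.72 ± 0.75. Summed, the 5 genes reached 393 and 461 CPM on Day 21 and 284 and 371 CPM before, most of it Psmb8. Their median log2 change was -0.16, with 2 genes positive and 3 negative, but its sign was not stable. It was 0.18 without Day 21 AM replicate 2 and 0.54 without Pre AM replicate 2. With tags of one gene only it was 0.42, but over Psmb8, Psmb9 and Psmb10 alone, since Psme1 and Psme2 were not tested there. With all libraries and tags, the 20 tested members outside these 5 genes had a median of 0.21, with 13 positive and 7 negative.

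**Figure D2:**
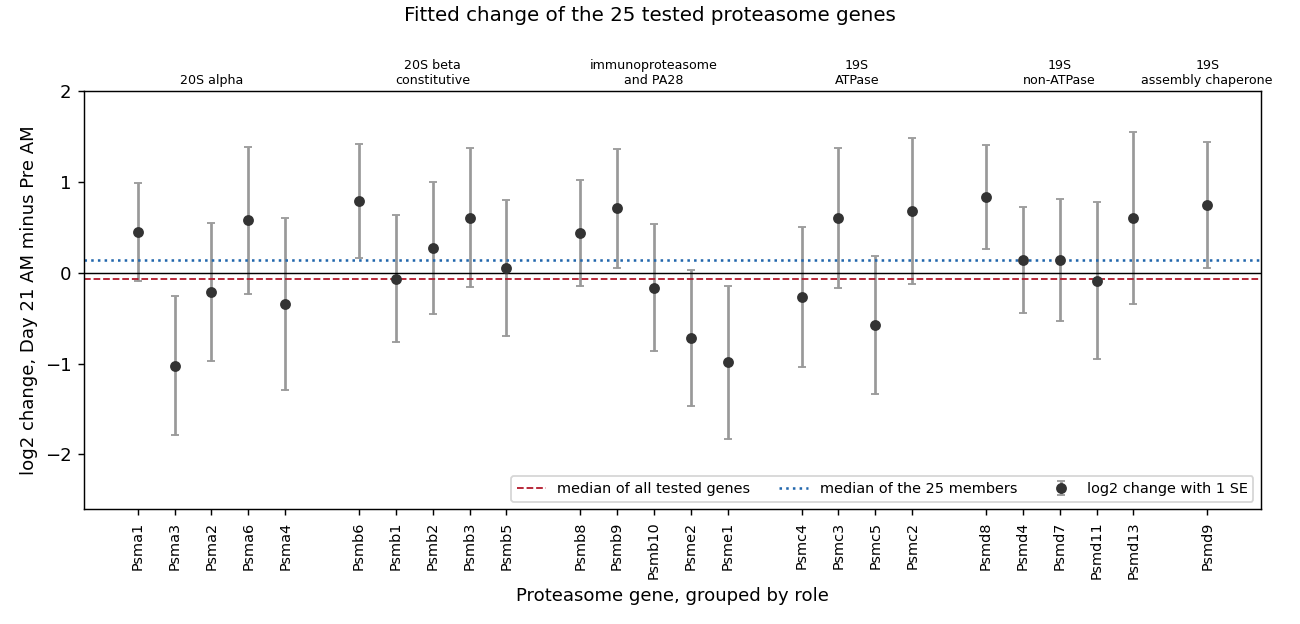
Fitted log2 change (Day 21 AM minus Pre AM) of each of the 25 tested proteasome genes, with bars of 1 standard error, grouped by role. The dashed line is the median of all tested symbols (-0.07) and the dotted line that of the 25 members (0.14). The largest values on either side, Psmd8 at 0.83 and Psma3 at -1.02, had unadjusted p-values of 0.160 and 0.193.

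The balance between immunoproteasome and constitutive catalytic subunits was then compared between libraries, as the share of Psmb8, Psmb9 and Psmb10 among the tags of all 6 catalytic genes. The share was 73.7% and 73.5% in Day 21 AM replicates 1 and 2 (659 of 894 and 630 of 857 counts) and 80.3% and 73.8% in Pre AM replicates 1 and 2 (546 of 680 and 825 of 1118 counts). The exact Clopper-Pearson 95% interval of counting error was 77.1% to 83.2% in Pre AM replicate 1. In the other libraries, in the order above, it was 70.7% to 76.6%, 70.4% to 76.4% and 71.1% to 76.3%. Pre AM replicate 1 was the 1 library that stood above the others, and the other Pre AM library lay within the intervals of both Day 21 AM libraries. Within single pairs, Pre AM replicate 1 was the highest library only for Psmb8 and Psmb5, at 96.5% beside 92.5% to 95.9%. The pair of Psmb9 and Psmb6, with the lowest immunoproteasome share, gave 182 of the 680 counts of that library. In the other libraries, in the order above, this pair gave 326 of 894, 349 of 857 and 409 of 1118. The share over all 6 genes thus also depends on the mix of the pairs. With last-site tags alone the difference between the group means, Day 21 AM minus Pre AM, was 2.004 percentage points in place of -3.43. Those tags held 5.59% of the counts of Psmb9 and 16.9% of those of Psmb6. That share therefore rests mostly on the other pairs and is not the same quantity. The group means were 73.6% ± 0.14 on Day 21 and 77.0% ± 4.60 before (SD, n = 2). As a score over chosen members the share was not tested.

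Each pair had its own balance in all 4 libraries. Psmb8 held 95.9% and 95.2% of the tags of Psmb8 and Psmb5 on Day 21 and 96.5% and 92.5% before, or 12.3 to 27.2 counts of Psmb8 for each count of Psmb5. Psmb10 likewise held 96.1% and 92.3% of the tags of Psmb10 and Psmb7 on Day 21 and 95.7% and 86.6% before, on totals of 26 to 82 counts per library. Psmb9 held less than its counterpart Psmb6 in every library, with 35.0% and 42.1% on Day 21 and 36.3% and 42.5% before. In the pair of Psmb9 and Psmb6 the 2 replicates numbered 2 were the higher ones in both groups. In the other pairs they were the lower ones in both groups. Since tags differ in yield, these shares compare libraries and do not give the protein composition of the particle.

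**Figure D3:**
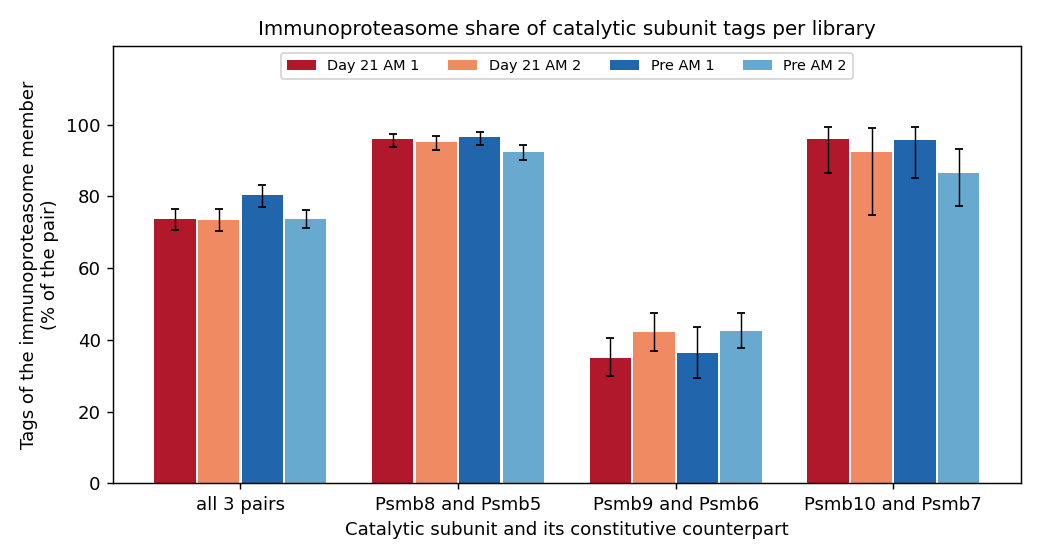
Share of the tags of each catalytic pair that belong to the immunoproteasome member, in percent, per library, with exact 95% intervals of counting error as bars. For all 3 pairs together, Pre AM replicate 1 is at 80.3% and the other 3 libraries are between 73.5% and 73.8%. This pooled share also depends on how many tags each pair gave.

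The tags of Psmb6 and Psmb9 differ enough to be counted apart. The last NlaIII site of Psmb6 and the main site of Psmb9 have 15 of 21 bases after CATG in common, compared position by position without gaps. The 2 sites are printed with the 6 bases that differ in capitals:
Psmb6: catgGaAcgCgaCggctcCagtggA
Psmb9: catgAaCcgAgaTggctcTagtggG

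The Psmb6 tag at this site (chr11:70527450-70527474, plus strand, exon 6 of 6) held 16.9% of the counts of its gene, and the Psmb9 tag 94.4%. Most counts of Psmb6 came instead from its first NlaIII site (chr11:70525893-70525917, coding sequence of exon 2 of 6), which held 82.6%. This tag is shown because it carries most of the Psmb6 values above:
Psmb6, first site: CATGgctgtgcagtttaatgggggc

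The 19S ATPases, which unfold substrates, were counted at low levels. Psmc4 had 14 and 19 counts on Day 21 and 14 and 46 before, and Psmc3 had 18 and 21 against 10 and 28. Psmc2 had 11 and 20 against 8 and 21 counts. In these 3 genes the groups overlapped, with log2 changes of -0.27 ± 0.77, 0.61 ± 0.77 and 0.68 ± 0.81. Psmc5 had 11 and 14 counts against 26 and 28, and both Day 21 AM libraries were below both Pre AM ones (6.28 and 9.97 CPM against 12.8 and 11.4 CPM). Its log2 change was -0.58 ± 0.76 (unadjusted p = 0.454). Psmc1, with 4 to 10 counts per library, and Psmc6, with 3 and 3 counts before and listed at 0 on Day 21, were below the filter.

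Among the non-ATPase subunits of the 19S regulator, Psmd8 and Psmd4 differed in their pattern over the libraries. Psmd8, a subunit of the lid, had 807 and 762 counts on Day 21 and 619 and 634 before. At 461 and 543 CPM against 304 and 259 CPM, it had the smallest p of all members, with a log2 change of 0.83 ± 0.58 (95% interval -0.35 to 2.02, unadjusted p = 0.160). Psmd4, a receptor for ubiquitin chains, had 553 and 537 counts on Day 21 and 781 and 612 before. Its Pre AM libraries, at 383 and 250 CPM, enclosed the Day 21 AM ones at 316 and 382 CPM, and its log2 change was 0.14 ± 0.58. Psmd7, another lid subunit, was the most even member, with 57 and 52 counts against 70 and 70, and its highest level was 1.29 times its lowest.

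The other lid and base subunits had fewer counts. Psmd11 had 13 and 6 counts on Day 21 against 7 and 22 before, and Psmd13 had 12 and 7 against 4 and 14. Psmd1, Psmd2, Psmd3, Psmd6, Psmd12 and Psmd14, the last the deubiquitinase of the lid, had at most 12 counts in any library and were not tested. The median over the 5 tested non-ATPase subunits was 0.14, with 4 of them positive.

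The remaining factors assemble, activate or inhibit the particle. Psmd9, a chaperone of 19S assembly, had 50 and 62 counts on Day 21 against 36 and 62 before, or 28.6 and 44.1 CPM against 17.7 and 25.3 CPM. Its groups did not overlap, and its log2 change was 0.75 ± 0.69 (unadjusted p = 0.289). Its fellow chaperones Psmd10 (3 and 0 against 6 and 7 counts) and Psmd5 (4 counts in Pre AM replicate 2 alone) were below the filter. So were the activator Psme3 (4 and 5 against 7 and 6 counts), the inhibitor Psmf1 (at most 4 counts) and the 20S assembly chaperones Psmg3 and Psmg4 (at most 5 counts). Psme4, Psmg1 and Psmg2 are listed at 0 in every library.

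In most members the libraries of the 2 groups overlapped. Of the 25 tested members, 6 had both Day 21 AM libraries above both Pre AM ones (15.2% of all tested symbols did) and 3 had both below (16% did). The other 16 overlapped. The 2 Pre AM libraries enclosed both Day 21 AM libraries in 7 of the 25 members, beside 595 of the 2979 tested symbols. Pre AM replicate 2 was above Pre AM replicate 1 in 21 of 25 members, beside 52.4% of all tested symbols. Pre AM replicate 1 was the lowest library for 17 of the 25 (68.0%), beside 32.5% of all tested symbols, and Day 21 AM replicate 2 was the highest for 12 (48.0% beside 28.1%). Without Pre AM replicate 2 the median log2 change was 0.66 over the 29 members then tested, beside 0.00075 over all symbols tested there. Without Pre AM replicate 1 it was -0.090 over 28 members, beside -0.0088. Each of these fits left 1 Pre AM library, so only the change is given. With all libraries, the 25 tested members all passed the filter on low counts through libraries of both groups.

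Where along the transcript a gene was counted also varied between libraries. In 8 members at least 10 counts over all libraries fell on the last NlaIII site of some transcript and at least 10 on other sites, called upstream here. In Psmb9 the site that counts as last ends a shorter transcript in exon 3, and the main tag lies beyond it. Psmb5 was split almost evenly between a tag in exon 1 and a tag at its last site, 31 bases from the 3' end of the transcript. Both are shown because the libraries weighted them differently:
Psmb5, exon 1 of 3: CATGgcgctggctagcgtgttgcag
Psmb5, exon 3 of 3: CATGgctataataaataatagtacc

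The exon 1 tag (chr14:54617968-54617992, minus strand, across the start of the coding sequence) had 8 and 18 counts on Day 21 and 5 and 25 before. The exon 3 tag (chr14:54614126-54614150, minus strand, 3' UTR) had 13 and 5 counts on Day 21 and 11 and 22 before. The upstream share of Psmb5 was thus 38.1% and 78.3% on Day 21 and 31.2% and 53.2% before, with the highest value in Day 21 AM replicate 2. Day 21 AM replicate 2 also had the highest upstream share in Psmb6 (89.6%, beside 79.6% to 82.5% in the other 3 libraries) and Psmd7 (96.2%, beside 75.7% to 88.6%). It had the highest share in 3 of the 8 genes, beside 2 for each Pre AM library and 1 for Day 21 AM replicate 1. In Psmb8 and Psmd4 upstream sites held at most 1.90% of the counts of any library. Over all members, upstream sites held 8.34% and 10.7% of the counts on Day 21 and 6.60% and 10.6% before, beside 10.2% to 15.4% over all symbols. Pre AM replicate 1 had the lowest share in both. Over all symbols the highest share was in Pre AM replicate 2 (15.4%), with 13.4% in Day 21 AM replicate 2.

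**Figure D4:**
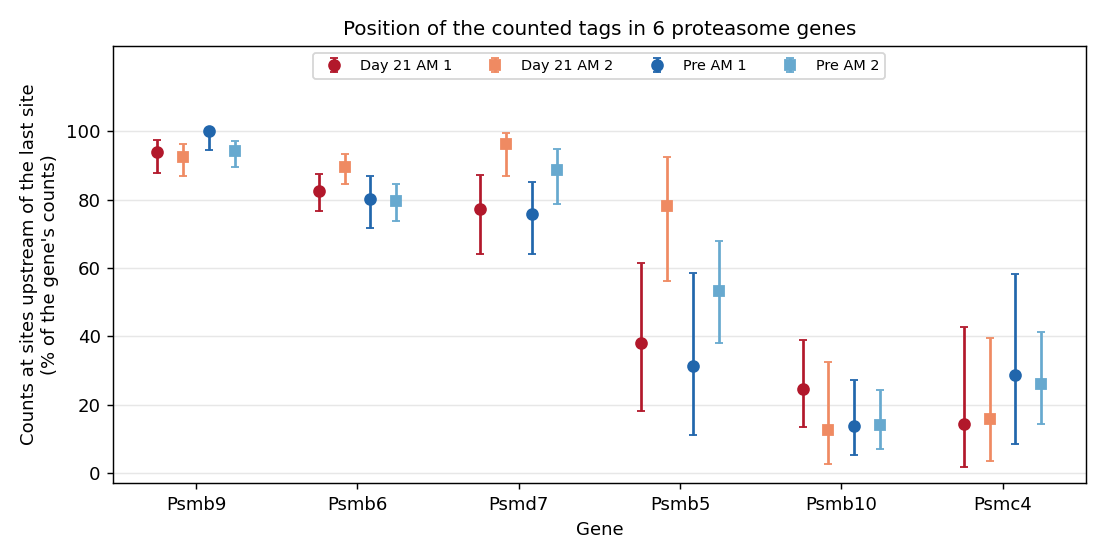
Share of the counts of 6 proteasome genes that fell on NlaIII sites that are the last site of no annotated transcript, in percent, per library, with exact 95% intervals of counting error. Psmb5 runs from 31.2% in Pre AM replicate 1 to 78.3% in Day 21 AM replicate 2, while Psmb9 is at 92.5% or above in all 4 libraries.

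Counting the last-site tags alone gave 0 of 23 tested members past the threshold, beside 8 higher and 0 lower of the 2085 symbols tested. With these tags the log2 change of Psmd7 was -0.26 (0.14 with all tags) and that of Psmb1 was 0.028 (-0.07 with all tags).

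Genes that work with the proteasome were read from a fixed list of partners, assembly and transcription factors. Of its 33 names 26 had a count and 14 were tested, of which 0 passed the adjusted threshold and 0 had an unadjusted p under 0.05. The median was -0.47, with 4 of the 14 positive. Over all tested symbols 0.739% passed the adjusted threshold, 5.64% had an unadjusted p under 0.05, 45.6% were positive and the median was -0.07. Usp14, a deubiquitinase that docks on the 19S regulator, had 5 and 5 counts on Day 21 and 21 and 15 before (log2 change -1.34 ± 0.90, unadjusted p = 0.151). Txnl1, a thioredoxin-like protein of the 19S regulator, had 17 and 2 against 25 and 31 counts. In both genes the 2 Day 21 AM libraries were below the 2 Pre AM ones. Pomp, the maturation factor of the 20S core, had 41 and 21 counts against 45 and 51. Nfe2l1, the transcription factor of proteasome genes, had 9 and 7 counts against 2 and 4 and was below the filter.

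A second list held genes of interferon-gamma signalling and of peptide supply to MHC class I, which induce or use the immunoproteasome. Of 20 names 16 had a count and 11 were tested. Of these, 0 passed the adjusted threshold, 1 had an unadjusted p under 0.05, 8 had a positive log2 change, and the median was 0.45, beside the same shares over all tested symbols (0.739%, 5.64% and 45.6%) and their median of -0.07. Tap2, a subunit of the peptide transporter that is encoded beside Psmb8 and Psmb9, had 22 and 47 counts on Day 21 and 9 and 14 before. Its log2 change was 2.16 ± 0.79, with an unadjusted p of 0.0116 and an adjusted p of 0.481 in edgeR's quasi-likelihood test. Irf8, a transcription factor of macrophages, had 21 and 45 counts against 11 and 32, and its groups overlapped. Tapbp, the tapasin of the peptide loading complex, had 189 and 253 counts against 132 and 232.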

How the data were processed

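The deposited files give raw counts for tags of 21 bases after CATG, each with a symbol and an accession, per the file headers. The submitters' processing notes name the mm9 build; how tags were assigned and which low counts were dropped is not stated there. Counts of all tags of a deposited symbol were summed. Of the symbols, 16 (179 tags, none of them proteasome tags) are parts of a description and merge several genes. All 163 proteasome tags kept their name through the RefSeq accession. Another 2 tags have an accession whose name fits the spelling but a symbol that does not, and were not counted as members.

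Groups were tested with edgeR 4.0.16 in R 4.3.3 (quasi-likelihood test, TMM, filterByExpr with a minimum count of 10 and total of 15, Benjamini-Hochberg over 2979 symbols, threshold 0.05). The SE is derived from the fitted change and its F statistic. Alternatives changed scaling, filter, tags, names, tool (DESeq2 1.42.0, limma-voom 3.58.1), block and libraries. The script was also tested on simulated data. Tags were matched with their CATG to GENCODE M21 (GRCm38).

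Full values are given for the immunoproteasome genes, for any called gene and, per role, for the 4 tested members of smallest p and the most abundant one, and for the 3 genes of smallest p per list. One gene that this rule takes is not reported here. Counts of other members, and Pomp, Nfe2l1 and the marker genes named, were added after their values were seen. The members and lists were chosen with earlier results of these data known. The exact intervals of shares cover counting error only. They treat each count as a separate molecule, which could not be checked because reads carry no molecular identifiers. The intervals of fitted changes rest on the SE, which also reflects the spread between libraries.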

Additional observations from a re-analysis of the deposited data

How the results depend on the processing

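The number of proteasome genes past the adjusted threshold was 0 under every alternative that kept all libraries, with 21 to 42 members tested. Over all symbols the same alternatives called 8 to 36 higher and 0 to 9 lower, of 2085 to 7236 tested. Over 22 named subunits, 308 of 324 values under alternatives kept their direction, 16 did not, and 13 subunits never changed direction. These 22 were taken partly by smallest p and leave out Psma2, Psmb5 and Psmd11, so the counts do not describe all tested members. With total counts alone the log2 change was -0.084 for Psmd4 and -0.083 for Psmd7. With last-site tags only, an alternative chosen after seeing the data, it was 0.028 for Psmb1 and -0.26 for Psmd7. The difference in immunoproteasome share was then 2.004 percentage points, with most counts of Psmb6 and Psmb9 left out. With tags of one gene only the median of the tested immunoproteasome genes was 0.42, over Psmb8, Psmb9 and Psmb10 alone. Leaving out 1 library at a time, the median of all tested members ran from -0.090 to 0.66, that of the immunoproteasome genes from -0.51 (without Day 21 AM replicate 1) to 0.54 (without Pre AM replicate 2), and the share difference from -6.68 to -0.18 percentage points. Single genes then ran from -1.28 to 0.23 (Psma4), -0.24 to 0.17 (Psmb1), -0.51 to 0.18 (Psmb10), -0.25 to 1.15 (Psmb2), -0.090 to 2.10 (Psmb3), -0.81 to 0.66 (Psmc4), -0.11 to 0.48 (Psmd4) and -1.69 to 0.54 (Psme1). The cause was not tested. In a fit that left 1 library in a group, that library is assumed to vary like the others.

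With the replicate number as a replicate block, 0 members were called and the smallest adjusted p of a member was 0.430 (edgeR's quasi-likelihood test), beside 28 higher and 9 lower over all symbols in place of 20 and 2. Deviations of same-numbered libraries from their group means correlated at 0.54 over the 2979 tested symbols. With 2 libraries per group both pairs give this same value, and the labels give them no more than a number in common. Standard errors ran from 0.54 for Psma1, with 1521 to 2246 counts per library, to 0.95 for Psma4, with 3 to 17.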

Other observations

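One abundant tag outside the proteasome symbols carries a proteasome name in the deposited annotation column. It is listed under D130012P04Rik, had 325 and 542 counts on Day 21 and 385 and 1108 before, and its annotation names 7 genes, Psmd11 among them. It matched transcripts of 32 GENCODE genes, none of them Psmd11, and was not counted for Psmd11, whose own tags held 48 counts in all libraries. Its sequence was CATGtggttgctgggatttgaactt.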
